A study of Mus musculus with 6 samples.

Results

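The genes described here encode the corticosteroid receptors and the corticotropin-releasing hormone (CRH) system in the prefrontal cortex of aged mice. They were chosen by symbol as Nr3c1, Nr3c2, Hsd11b1, Crh, Crhr1 and Crhbp, and all 6 were among the 21006 genes of the tables. Bulk mRNA was measured in 18-month-old male C57BL/6 mice, which carried no engineered allele. The age is that of the age label, while all 6 sample titles carry the tag 17M. Mice of the PND group (for postoperative neurocognitive disorder, which it models) were given 1.5% isoflurane and an exploratory laparotomy, a surgical opening and inspection of the abdomen lasting 30 min. The CON group had neither. Both groups went through behavioural tests, among them fear conditioning with foot shocks. Operated mice also had lidocaine cream and povidone iodine on the wound. Per the study's methods the tissue was taken under isoflurane after the last Barnes maze session, on day 6 after the operation. The CON mice therefore met the anesthetic at harvest too. Each group had 3 samples.

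Glucocorticoids, corticosterone in the mouse, pass into cells and bind cytoplasmic receptors that move to the nucleus and change transcription. Nr3c1 encodes the glucocorticoid receptor, Nr3c2 the mineralocorticoid receptor, which binds corticosterone with higher affinity, and Hsd11b1 the enzyme that regenerates active hormone inside cells. Crh encodes the peptide that starts the hormonal stress response from the hypothalamus and that is also made by cortical interneurons, Crhr1 its main receptor in brain, and Crhbp a secreted protein that binds the peptide. The question here was whether any of them differed between PND and CON.

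The values were FPKM, fragments per kilobase of exon scaled to depth, so that levels can be compared between genes. The estimated depth was 7210798 to 9383368 fragments per sample, and mitochondrial genes took 30.4% to 38.8% of summed FPKM. All 12 interneuron markers and all 10 excitatory neuron markers reached 1 FPKM in at least 1 sample, while 1 of the 9 measured hypothalamic and basal forebrain markers did. Libraries differed in the level of GC-rich genes: over the 1233 genes with the highest GC content, the median log2 deviation from the mean of all samples was 0.11, -0.30 and 0.37 in PND replicates 1 to 3 and -0.56, 0.49 and -0.03 in CON replicates 1 to 3. The first principal component (45.6% of variance) put the libraries in exactly the reverse of that order. On the second component (15.7%) CON replicate 3 stood apart at 33.2, against -13.9 to 2.27 for the other 5.

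Nr3c1 had the highest mean of the 6 genes (9.31 FPKM), followed by Nr3c2 (4.09), Crhbp (3.63), Crh (1.29), Crhr1 (0.998) and Hsd11b1 (0.417). Nr3c1 lay above Nr3c2 in 6 of 6 samples, 2.25-fold on average, and Crhbp lay above Crh in 6 of 6, 3.04-fold on average. Both steps had an exact two-sided sign-flip permutation p of 0.03125, the smallest that 6 samples can give, and 0.0781 after adjustment over the 5 neighbouring pairs. The pairs were neighbours in the order of these same means, so the values tested also chose the pairs. The other 3 neighbouring pairs changed order between samples (adjusted exact permutation p = 0.5 each).

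Compared with the CON group, Nr3c1 was lower in the PND group before adjustment for the number of genes, and none of the other 5 genes passed the same threshold. In limma 1 of the 6 members passed unadjusted p below 0.05, against 3.13% of the 18185 genes tested: 0 were higher and 1 was lower, against 1.73% and 1.4%. None passed the study's cut-off of more than 2-fold with unadjusted p below 0.05, which 1.33% of all genes passed (0.484% lower in PND), and none had a limma adjusted p below 0.05, which 0.011% had. The adjusted p was 0.9999 for each of the 6. For single genes the exact two-sided permutation test of 3 samples against 3 is also given, which cannot go below 0.1. The median log2 fold change of the 6 was -0.32, beside 0.01 for all genes tested. All fold changes are PND against CON on log2(FPKM + 0.1), which understates the change of low genes.

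**Figure D1:**
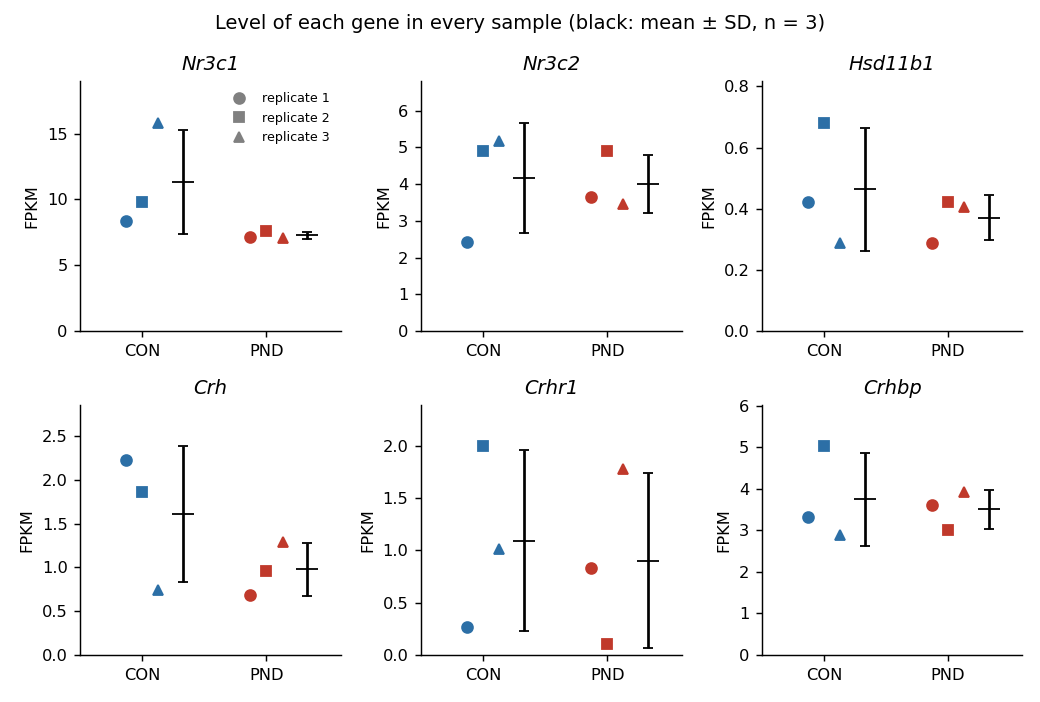
FPKM of each gene in every sample, CON in blue and PND in red, with a marker shape for each replicate and the mean ± SD in black (n = 3 per group). The groups do not overlap for Nr3c1, where CON replicate 3 at 15.8 FPKM lies above all others, and they overlap for the other 5 genes.

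Nr3c1 (ENSMUSG00000024431) lies on chromosome 18 at 39410545 to 39519421 of GRCm38, on the minus strand, with 13 merged exons totalling 7684 bases. Its level was 7.18, 7.60 and 7.09 FPKM in PND replicates 1 to 3 and 8.38, 9.78 and 15.8 FPKM in CON replicates 1 to 3. The PND samples lay close together, all CON samples lay above them, and CON replicate 3 stood well above the other controls. The mean was 7.29 ± 0.273 FPKM in PND and 11.3 ± 3.95 in CON (SD, n = 3). The log2 fold change was -0.58 (SE 0.23, 95% interval -1.12 to -0.04), which passed the unadjusted threshold in limma (adjusted p = 0.9999), with an exact permutation p = 0.1. It was the 1 of 6 members whose groups did not overlap, against 7.66% of all genes tested and 3.88% with every PND sample below every CON sample. In bulk tissue, fewer cells of a type and less RNA per cell cannot be told apart. Without CON replicate 3 the log2 fold change was -0.31 and did not pass the unadjusted threshold. It also missed that threshold at -0.61 to -0.56 with any 1 PND sample left out, at -0.54 with a GC correction, and at -0.58 with a replicate block or without the intensity trend, but passed it at -0.54 with the GC correction and the block together. CON replicate 3 also had the highest summed level of the 10 striatal markers, 351 FPKM against 138 and 240 in the other controls and 214 to 266 in PND, with all 10 markers at 1 FPKM or more in that library. Of the astrocyte markers, Slc1a2, a glutamate transporter, was highest in CON replicate 3 too, at 368 FPKM against 68.5 and 250.0 in the other controls and 113 to 219 in PND, while the other 9 summed to 276 FPKM there, against 273 and 278 in the other controls and 268 to 302 in PND. The part of these markers in the Nr3c1 difference was not tested.

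Nr3c2 (ENSMUSG00000031618), on chromosome 8 at 76899442 to 77245012 (plus strand), had about the same mean in both groups. Its level was 3.65, 4.91 and 3.47 FPKM in PND and 2.44, 4.90 and 5.17 in CON. The lowest and the highest of the 6 values were both controls, so the groups overlapped fully. The mean was 4.01 ± 0.784 FPKM in PND and 4.17 ± 1.50 in CON. The log2 fold change was 0.0026 (SE 0.31, 95% interval -0.71 to 0.72, exact permutation p = 0.9), an interval wide enough to hold a change in either direction, and it turned to -0.15 without PND replicate 2 and to -0.34 without CON replicate 1. Exons of Nr3c2 share 247 bases with Gm10649, a noncoding gene on the opposite strand, and whether strand was used in counting was not stated.

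The balance of both receptors was followed as the ratio Nr3c2 to Nr3c1 within each sample. It was 0.509, 0.646 and 0.490 in PND and 0.291, 0.501 and 0.327 in CON. PND replicate 2 was highest, and CON replicate 2 lay among the PND samples. The mean log2 ratio was -0.88 ± 0.217 in PND and -1.46 ± 0.412 in CON (n = 3 each), a difference of 0.59 with exact two-sided permutation p = 0.2. With 3 samples against 3 this test cannot go below 0.1.

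Hsd11b1 (ENSMUSG00000016194), on chromosome 1 at 193221634 to 193264075 (minus strand), was the least abundant of the 6 genes. Its level was 0.287, 0.421 and 0.405 FPKM in PND and 0.423, 0.681 and 0.287 in CON. CON replicate 3 and PND replicate 1 were lowest, and CON replicate 2 was highest. The mean was 0.371 ± 0.0735 against 0.464 ± 0.20 FPKM, with a log2 fold change of -0.21 (SE 0.37, 95% interval -1.07 to 0.65, exact permutation p = 0.5). The direction turned to 0.055 without CON replicate 2.

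Crh (ENSMUSG00000049796), on chromosome 3 at 19693401 to 19695396 (minus strand), is a short gene of 2 exons and 1320 exon bases. Its level was 0.685, 0.958 and 1.29 FPKM in PND and 2.22, 1.86 and 0.737 in CON. CON replicates 1 and 2 lay above every PND sample, and CON replicate 3 lay near the lowest. These levels correspond to about 8, 10 and 16 fragments in PND and 22, 20 and 7 in CON, so counting error alone is large. The mean was 0.978 ± 0.304 FPKM in PND and 1.61 ± 0.775 in CON, with a log2 fold change of -0.57 (SE 0.43, 95% interval -1.58 to 0.43, exact permutation p = 0.3). Without CON replicate 3 it was -1.02, past the study's cut-off, and 0 members had an adjusted p below 0.05 in that fit. It shrank to -0.29 without CON replicate 1 and to -0.36 without PND replicate 1. The 12 interneuron markers, which include Sst and Vip, summed to 248 to 270 FPKM in PND and 236 to 264 in CON, none was at 0, and 0 of 12 had unadjusted p below 0.05.

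Crhbp (ENSMUSG00000021680), on chromosome 13 at 95431371 to 95444924 (minus strand), was the steadiest of the CRH genes between samples. Its level was 3.62, 3.00 and 3.92 FPKM in PND and 3.32, 5.02 and 2.89 in CON. CON replicate 2 was highest and CON replicate 3 lowest, with all PND samples between them. The mean was 3.51 ± 0.468 against 3.74 ± 1.13 FPKM, with a log2 fold change of -0.06 (SE 0.24, 95% interval -0.61 to 0.50, exact permutation p = 0.9). The direction turned to 0.047 without PND replicate 2 and to 0.17 without CON replicate 2.

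The amount of peptide transcript relative to its binding protein was followed as the ratio Crh to Crhbp. It was 0.189, 0.319 and 0.330 in PND and 0.669, 0.370 and 0.255 in CON. CON replicate 1 was far above the rest, and the other controls lay on either side of PND replicates 2 and 3. The mean log2 ratio was -1.88 ± 0.450 in PND and -1.33 ± 0.701 in CON, a difference of -0.56 with exact two-sided permutation p = 0.4.

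**Figure D2:**
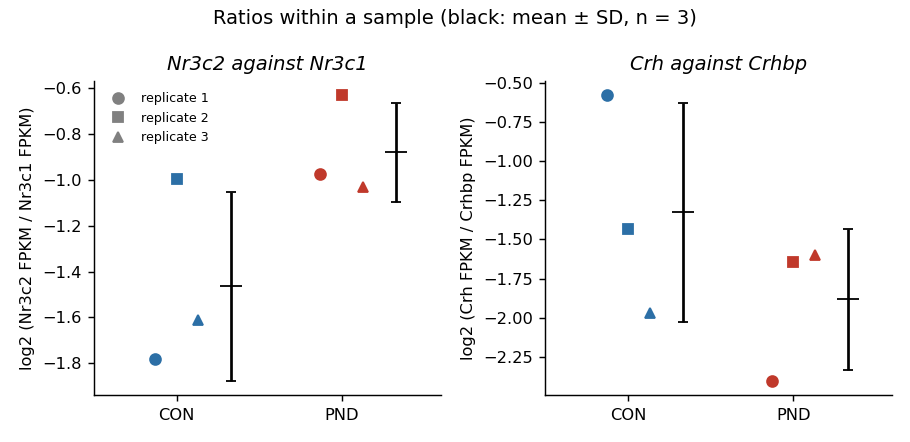
Log2 ratio of Nr3c2 to Nr3c1 (left) and of Crh to Crhbp (right) within each sample, CON in blue and PND in red, with mean ± SD in black (n = 3 per group). The groups overlap in both panels, with mean differences of 0.59 and -0.56.

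Crhr1 (ENSMUSG00000018634), on chromosome 11 at 104132855 to 104175523 (plus strand), varied most between samples. Its level was 0.827, 0.103 and 1.78 FPKM in PND and 0.271, 2.00 and 1.02 in CON. PND replicate 2 and CON replicate 1 were low and PND replicate 3 and CON replicate 2 high, so both groups spanned most of the range. In PND replicate 2 about 2 fragments were counted (95% Poisson interval 0.242 to 7.22) and in CON replicate 2 about 40 (28.6 to 54.5), intervals that cover counting error only. The mean was 0.902 ± 0.839 FPKM in PND and 1.09 ± 0.865 in CON, with a log2 fold change of -0.43 (SE 0.91, 95% interval -2.57 to 1.70, exact permutation p = 0.6). The direction turned to 0.47 without PND replicate 2 and to 0.13 without CON replicate 2.

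The longest annotated transcript of Crhr1 is GC-rich, at 58.2%, higher than 92.2% of genes, against 42.2% for Nr3c1, 43.3% for Hsd11b1, 47.5% for Nr3c2, 49.0% for Crhbp and 51.1% for Crh. Coding stretches of the same length, with G and C in capitals, show the difference between the most GC-rich member and the enzyme gene with a low GC content. They are the first 120 bases of the longest coding exon, from GENCODE M21 on GRCm38.
Crhr1, chr11:104170122-104170241, plus strand, coding exon 7 of 13, 57.5% GC: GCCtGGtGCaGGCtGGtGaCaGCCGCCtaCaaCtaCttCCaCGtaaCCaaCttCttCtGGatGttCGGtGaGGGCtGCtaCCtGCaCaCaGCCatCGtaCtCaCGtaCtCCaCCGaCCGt
Hsd11b1, chr1:193222109-193222228, minus strand, coding exon 6 of 6, 47.5% GC: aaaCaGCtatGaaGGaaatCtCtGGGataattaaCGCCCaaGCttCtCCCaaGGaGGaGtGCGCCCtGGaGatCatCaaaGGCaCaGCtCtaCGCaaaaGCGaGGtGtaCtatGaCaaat
Libraries in which GC-rich genes read low, CON replicate 1 and PND replicate 2, were those with the lowest Crhr1, and libraries in which they read high, CON replicate 2 and PND replicate 3, had the highest. The range of Crhr1 over the 6 samples was 19.4-fold as deposited and 9.52-fold, from 0.150 to 1.43 FPKM, after each library was corrected for GC content. The part of the GC balance in the remaining spread was not tested.

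**Figure D3:**
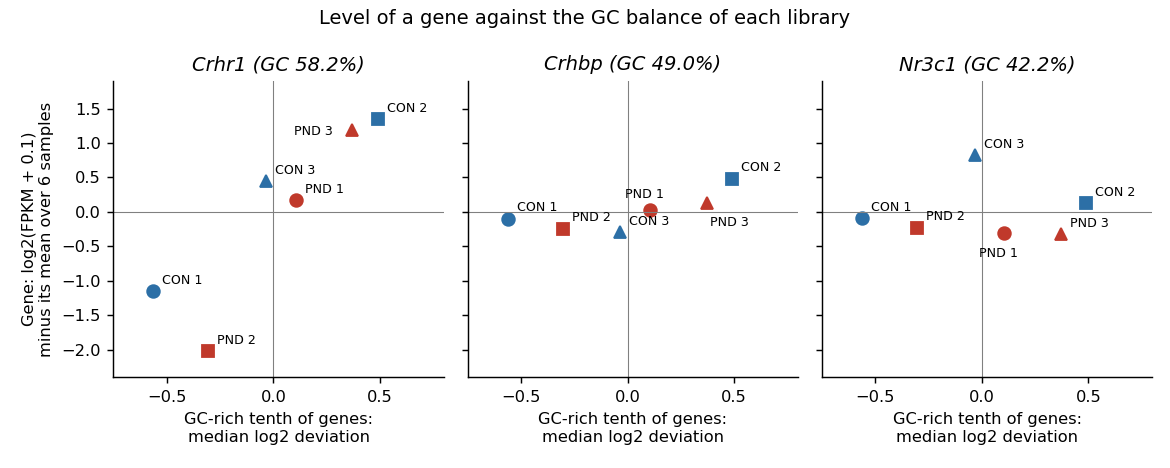
Level of Crhr1, Crhbp and Nr3c1 in each library (log2(FPKM + 0.1) minus its mean over the 6 samples) against the median log2 deviation of the 1233 GC-richest genes in that library. CON is blue, PND red. Crhr1 is lowest in the libraries at -0.30 and -0.56 and highest in those at 0.37 and 0.49, while Nr3c1 is highest in CON replicate 3 at -0.03.

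Of the wider pathway, 74 genes were listed in 7 groups around the members, and 60 of them were tested. Of these 60, 6 were up-regulated in PND and 0 down-regulated at unadjusted p below 0.05, against 1.73% and 1.4% of all genes tested, and 0 had a limma adjusted p below 0.05, against 0.011%. Without CON replicate 2 the total was 10, while over all genes it went from 569 of 18185 to 960 of 18177.

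Among peptides, Adcyap1, which encodes PACAP, a neuropeptide of stress circuits, was the 1 of 7 tested. It had 5.90, 3.51 and 4.69 FPKM in PND and 4.79, 4.47 and 4.33 in CON, with a log2 fold change of 0.02 (exact permutation p = 0.9). Pomc, the precursor of ACTH, was at 0 in 4 of 6 samples and was not tested. Ucn, Ucn2, Ucn3, Avp and Oxt were not analysed here.

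Of 4 receptors tested, 1 was higher and 0 lower in PND past the unadjusted threshold, against 1.73% and 1.4% of all genes tested. By the sign of the fold change, 2 were higher and 2 lower. Mc4r, a melanocortin receptor, had 0.984, 1.15 and 1.35 FPKM in PND and 0.677, 0.534 and 0.806 in CON, with a log2 fold change of 0.71 (SE 0.26, adjusted p = 0.9999 in limma). It missed the unadjusted threshold at 0.71, 0.60, 0.72 and 0.58 without PND replicate 2, PND replicate 3, CON replicate 1 and CON replicate 2 in turn. Mc4r also missed it at 0.71 with a replicate block and at 0.66 with quantile normalization. Adcyap1r1, the PACAP receptor, had 5.87, 4.61 and 2.43 FPKM in PND and 1.67, 7.49 and 1.89 in CON (log2 fold change 0.47, exact permutation p = 0.6). With 1 sample left out its log2 fold change ran from 0.093 without CON replicate 1 to 1.14 without CON replicate 2, of which the latter alone passed the unadjusted threshold. Crhr2, the other CRH receptor, was at most 0.062 FPKM in every sample and was not tested.

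None of 5 steroid enzymes and carriers passed unadjusted p below 0.05. Abcb1a, which encodes a blood-brain barrier pump that exports corticosteroids, was 8.15 ± 1.22 FPKM in PND and 6.97 ± 1.56 in CON (log2 fold change 0.23, exact permutation p = 0.3). Srd5a1, a steroid 5-alpha-reductase, had a log2 fold change of 0.29 (exact permutation p = 0.3).

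Of 10 chaperones of the receptors, 1 was higher and 0 lower in PND past the unadjusted threshold, against 1.73% and 1.4% of all genes tested. It was Fkbp5, described with the hormone-induced genes. By the sign of the fold change, 3 were higher and 7 lower. The abundant chaperones Hsp90ab1 (146 ± 14.4 FPKM in PND, 155 ± 16.0 in CON) and Hsp90aa1 (116 ± 6.71 and 125 ± 7.74) had log2 fold changes of -0.09 and -0.11, with exact permutation p = 0.5 and p = 0.2.

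None of 10 coregulators passed, among them Ncoa1 (29.9 FPKM in PND, 29.2 in CON) and Ncor1 (19.0 and 19.9). Nrip1, Crebbp and Ep300 did not overlap between groups, each lower in PND by 0.07, 0.09 and 0.16 on the log2 scale. None of 13 genes of CRH receptor signalling passed either, and Prkacb, a catalytic subunit of protein kinase A, was the 1 whose groups did not overlap, lower in PND by 0.14. Of all genes tested, 3.88% were lower in PND without overlap, and these 4 genes were named after their values were seen. Its most abundant members were Prkar1a, a regulatory subunit of protein kinase A (134 FPKM in both groups, log2 fold change 0.00), and Gnaq, a G protein subunit (50.4 and 52.1 FPKM, -0.05).

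Genes known to be induced by glucocorticoids held 5 of these 6 up-regulated genes. Of 18 listed and tested, 5 were up-regulated and 0 down-regulated at unadjusted p below 0.05, against 1.73% and 1.4% of all genes tested. In the list 15 had a higher and 3 a lower mean on the log2 scale. The median log2 fold change was 0.41, beside 0.01 for all genes tested. The 3 lower genes were Dusp1 (-0.42), Tsc22d3 (-0.17) and Pdk4 (-0.11). In 7 of 18 every PND sample lay above every CON sample, against 3.78% of all genes tested, and 2, Plin4 and Hif3a, passed the study's cut-off, against 0.841% in that direction. With a pseudocount of 1 the log2 fold change of Hif3a was 0.77, under that cut-off, and that of Plin4 was 1.40. The list was chosen with earlier results of these data known.

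Plin4, which coats lipid droplets, had 3.10, 2.15 and 3.57 FPKM in PND and 0.260, 0.625 and 0.557 in CON. That is a log2 fold change of 2.42 (SE 0.35, adjusted p = 0.247 in limma), the largest of the list. Sgk1, a kinase induced by both corticosteroid receptors, had 7.85, 7.16 and 9.75 FPKM in PND and 4.13, 3.80 and 4.63 in CON. That is a log2 fold change of 0.95 (SE 0.17, adjusted p = 0.624). Fkbp5, a co-chaperone that lowers the hormone affinity of the glucocorticoid receptor, had 4.35, 3.62 and 3.58 FPKM in PND and 2.16, 2.43 and 2.17 in CON, with a log2 fold change of 0.74 (SE 0.17). Hif3a, a member of the hypoxia-inducible factor family, had 1.84, 1.89 and 2.74 FPKM in PND and 0.922, 1.03 and 0.584 in CON, with a log2 fold change of 1.26 (SE 0.29); both had an adjusted p of 0.9999. For each of these 4 genes every PND sample lay above every CON sample, which gives the exact permutation p its lowest value, 0.1, and each still passed the unadjusted threshold with any 1 sample left out.

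Cdkn1a, a cell cycle inhibitor, had 1.54, 1.89 and 3.05 FPKM in PND and 0.998, 1.44 and 1.04 in CON, with a log2 fold change of 0.81 (SE 0.30, adjusted p = 0.9999 in limma). It missed the unadjusted threshold at 0.54, 0.72 and 0.74 without PND replicate 3, CON replicate 1 and CON replicate 3 in turn. The most abundant genes of the list were Klf9, a transcription factor (80.8 ± 5.96 FPKM in PND, 69.5 ± 5.28 in CON, log2 fold change 0.22, exact permutation p = 0.1), and Mt1, a metallothionein (67.0 ± 24.7 and 43.8 ± 21.2, log2 fold change 0.67, exact permutation p = 0.3). With 1 sample left out the log2 fold change of Mt1 ran from 0.30 without CON replicate 1 to 1.03 without CON replicate 2, of which the latter alone passed the unadjusted threshold. Mt1 also passed it at 0.62 with a GC correction and a replicate block together. Among other cell types, of 10 astrocyte markers Gfap was higher and Aqp4 lower in PND past the unadjusted threshold (log2 fold changes 0.66 and -0.36), and the 10 summed to 390 to 521 FPKM in PND and 341 to 643 in CON with none at 0. The 10 endothelial markers summed to 44.9 to 51.9 FPKM in PND and 40.7 to 52.2 in CON, and 1 of them, Ly6c1, was higher in PND past the unadjusted threshold (log2 fold change 0.79). Of 10 choroid plexus markers 4 were tested, and all 4 had a positive log2 fold change. Of these, 2 passed the unadjusted threshold, against 1.73% of all genes tested that were higher in PND. They were Clic6 (0.80) and Sostdc1 (1.38), the latter at most 0.30 FPKM in every sample. The choroid plexus markers summed to 2.96 to 3.75 FPKM in PND and 1.51 to 3.00 in CON, with Ttr at most 0.21 FPKM. Their part in these differences was not tested.

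**Figure D4:**
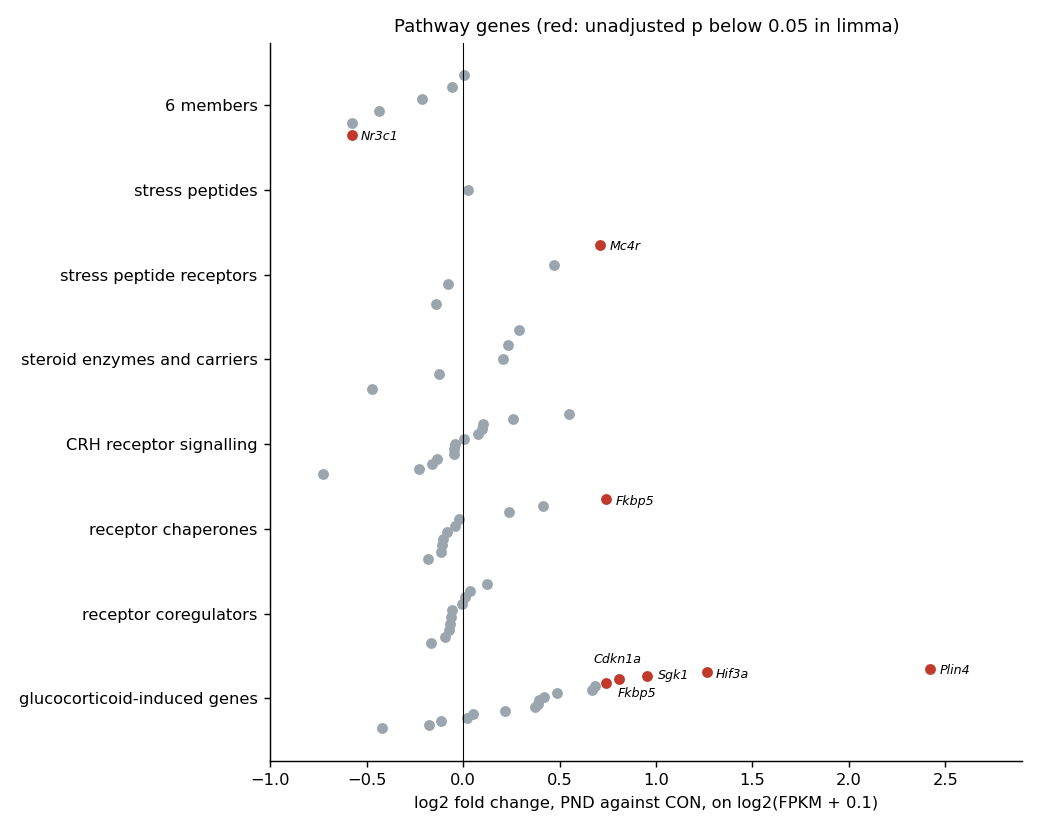
Log2 fold change of every tested gene, PND against CON, by group of genes. Each point is 1 gene, red where unadjusted p was below 0.05 in limma and grey otherwise, and the 5 red points of the glucocorticoid-induced group lie to the right, from 0.74 to 2.42, while Nr3c1 lies at -0.58.

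The genes whose pattern over the 6 samples was most like that of a member were found among 12322 genes averaging 1 FPKM or more, by the root mean square difference of centred log2(FPKM + 0.1). For Nr3c1 they were Gm37195, Mapre2 and Igsf5 at 0.12 each, against a spread of 0.40 of Nr3c1 itself. All were highest in CON replicate 3, as Nr3c1 was, which follows from picking them for their likeness to it over these same samples. For Nr3c2 they were Gm43519 (0.098), Ccdc134 (0.11) and Wdr46-ps (0.12), against its own spread of 0.37. For Crh they included Zfp639 (0.25) and Pigc (0.29), against a spread of 0.59, and for Crhbp Chrm3 (0.044), Top1mt (0.050) and Abcb10 (0.057), against a spread of 0.26. These are descriptions over 6 libraries, which differ in GC balance as given above.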

How the data were processed

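Prefrontal cortex mRNA of 3 PND and 3 CON mice was measured. The authors depleted ribosomal RNA, sequenced on an Illumina instrument, filtered reads with Seqtk, aligned with HISAT2, counted fragments with StringTie and deposited TMM-scaled FPKM per sample. The build, annotation and strand setting behind these values were not stated; the submitters' processing notes name Bowtie 0.12.2, mm8 and mm9 without a role. GENCODE M21 on GRCm38 gave coordinates, exon lengths and GC content and held 20877 of 21006 identifiers; 20866 had a symbol. Depth was estimated from steps in low FPKM values. Of those values, 41.7% to 44.8% were within 0.05 of whole fragments (10% if there were no steps), so fragment numbers are estimates.

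The 18185 genes averaging 0.1 FPKM or more were fitted in limma 3.58.1 (R 4.3.3) on log2(FPKM + 0.1) with an intensity trend and no covariate, with Benjamini-Hochberg adjustment. Single genes, ratios and level orders also had exact permutation tests. The unadjusted threshold is p below 0.05 in limma. The members and lists were chosen with earlier results of these data known. Named genes were the members, those of a list with unadjusted p below 0.05, the 2 most abundant of a list, and the 3 most like each member of at least 1 FPKM, of which 1 is not reported here. Other genes, such as Nrip1, Crebbp, Ep300, Prkacb and the markers named, were chosen after their values were seen and had no alternatives run. The groups came from the treatment labels, and scripts were tested on simulated data.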

Additional observations from a re-analysis of the deposited data

How the results depend on the processing

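Ranges with any 1 sample left out were, as log2 fold changes, -0.76 to -0.31 for Nr3c1, -0.34 to 0.19 for Nr3c2, -0.45 to 0.055 for Hsd11b1, -1.02 to -0.29 for Crh, -1.14 to 0.47 for Crhr1, -0.22 to 0.17 for Crhbp, -0.15 to 0.21 for Adcyap1, -0.081 to 0.0044 for Gnaq, -0.056 to 0.10 for Prkar1a, 0.12 to 0.41 for Abcb1a, 0.14 to 0.47 for Srd5a1, -0.17 to -0.034 for Hsp90ab1 and 0.58 to 0.83 for Mc4r. The log2 ratio difference ran from 0.43 to 0.82 for Nr3c2 to Nr3c1 and from -0.88 to -0.18 for Crh to Crhbp. Nr3c1 had unadjusted p below 0.05 in 2 of 6 of these and in 8 of 11 other settings; it missed that threshold at -0.58 without an intensity trend, -0.58 with a replicate block and -0.54 with a GC correction. In those 3 settings, 0 members passed, and with 1 sample left out the number ran from 0 to 1. Members past the study's cut-off ran from 0 to 1 and pathway genes with unadjusted p below 0.05 from 4 to 10.

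Nr3c2 turned negative with a pseudocount of 1 (-0.0080), quantile normalization (-0.031), median centring (-0.0031), GC correction with or without the block (-0.0036) and voom on estimated fragments (-0.0060). Prkar1a did so with quantile normalization (-0.028) and median centring (-0.0013). Hsd11b1 and Crhr1 were not tested under a minimum of 1 FPKM. Deviations of same-numbered samples from their group means correlated at -0.049, -0.45 and 0.027 over 12387 genes. Their mean was -0.16, against 0.079 for samples of other numbers. The libraries also differed in GC balance, so these values cannot tell whether the numbers mark a shared batch. With the replicate block, 361 genes had unadjusted p below 0.05 in place of 569. Mc4r missed the unadjusted threshold with the block (0.71) and with quantile normalization (0.66). Causes were not tested. The 3 samples per group and the few fragments for Crh, Crhr1 and Hsd11b1 limit the precision, which the intervals of the fold changes give.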
